A study of Harpegnathos saltator with 14 samples.

Results

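The transcripts described here are 127 coding gene models of the ant Harpegnathos saltator that were most abundant in males, out of 20317 coding models in the deposited table. They were selected on the male values themselves. Levels are RPKM, which scales the reads of a model to its length and to the size of the library, and comparisons use log2(RPKM + 1). A model was taken when the lower of the 2 male libraries exceeded the highest of the other 12 libraries by at least 1 on that scale. The table holds 20755 models in all. The other 438 carry identifiers that begin with XLOC rather than HSALG and are not described, although 10 of them met the same margin.

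The study holds 14 whole-body libraries of poly(A) RNA, in 7 groups of 2. Males were one group, adult workers another, and the other 5 were embryos, instar 1 larvae, instar 4 larvae, early pupae and late pupae. The labels give no genotype, treatment, age or colony for any group, and no sex for embryos, larvae or pupae. One husbandry protocol is given for all groups, with plaster nests and live crickets as food. The labels do not say how many animals went into a library or whether replicates came from separate animals, so every p-value reflects library-to-library spread alone, and part of that spread may be technical.

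Ant males normally develop from unfertilised eggs and are haploid, whereas workers are adult females. The adult male is largely a mating animal: it carries testes, sperm and accessory glands and is winged. Insect testes and sperm express many genes that other tissues hardly use, including components of the sperm tail. This is background and was not read from the data, because none of the identifiers could be matched to a gene name or function. Of the identifiers, 0 were found among the 14329 genes of the RefSeq table at hand, so every model is given by identifier, with no role. Marker and pathway lists had no matched members for the same reason, and the labelled groups were not checked against markers.

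Reads in gene models numbered 5405017 and 4284417 in the male libraries, against 4527594 to 14227119 in the other 12. The males therefore lay toward the shallow end, and a single read was worth 0.0839 and 0.114 RPKM there at the median length of the 127 models, against 0.0322 to 0.0905 RPKM elsewhere. The 2 early pupa libraries stood apart from each other. Their log2 values differed with an SD of 1.30 over 11879 HSALG models, against 0.935 in embryos, 0.723 in males and 0.312 in workers. Results outside males are therefore also given without the early pupae.

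The 127 models together took 8.82% and 11.4% of all gene reads in the male libraries. They took 1.07% and 1.12% in the worker libraries and between 0.223% and 0.879% in the other 10. Their median level was 103 and 97.8 RPKM in males, against 10.2 and 12.7 RPKM in workers and 1.52 to 3.84 RPKM in embryos, larvae and pupae. These sums describe the choice of models and carry no test. In whole bodies, more cells of a type and more RNA per cell cannot be told apart.

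**Figure D1:**
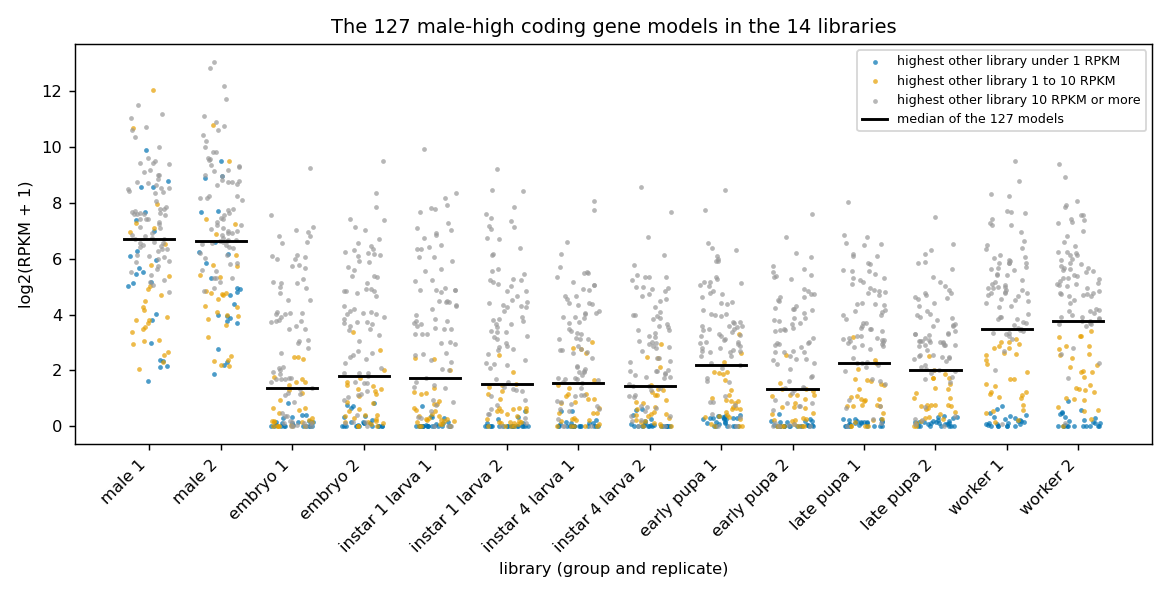
Level of each of the 127 male-high models in the 14 libraries, as log2(RPKM + 1), coloured by the highest RPKM reached in any library other than the males; the black line is the median. The median lies at 103 and 97.8 RPKM in the 2 male libraries and, among the rest, is highest in the 2 worker libraries, at 10.2 and 12.7 RPKM.

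The name "male-restricted" fits part of the set only. By the highest value in any other library, 24 models stayed under 1 RPKM outside males, 29 reached between 1 and 10 RPKM, and 74 reached 10 RPKM or more. These bounds of 1 and 10 RPKM were chosen after the values were seen. In all 12 other libraries, 53 models held at least 1 RPKM, or 41.7% of the set. Of the 8805 HSALG models with at least 1 RPKM in both males, 73.6% did so. The set is therefore called male-high here, and its 3 classes are described in turn. In males all 127 reached at least 1 RPKM; 96 and 95 did in the worker libraries, and 70 to 80 in each of the other 10.

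The margin between males and the highest other library had a median of 1.69 on the log2 scale and a maximum of 9.50. It lay between 1 and 2 for 84 models, between 2 and 3 for 19, between 3 and 5 for 14, and at 5 or more for 10. Just inside the bound were HSALG029272.1, HSALG005171.1 and HSALG023752.1, with margins of 1.00, 1.01 and 1.02. Just outside it were HSALG020380.1, HSALG003078.1 and HSALG021041.1, with 0.998, 0.996 and 0.983. Another 536 HSALG models had a margin above 0 and under 1. With only male replicate 1 or only male replicate 2 in place of both, 254 and 390 models met the bound. The bound thus cuts a continuous tail, as the plot of male level against the highest other library shows.

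**Figure D2:**
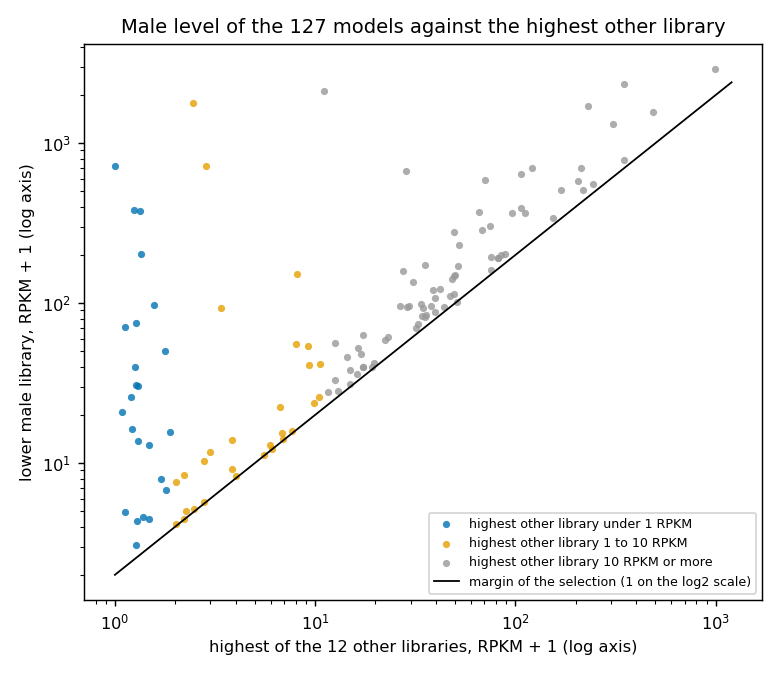
Lower male library against the highest of the 12 other libraries for each of the 127 models, both as RPKM + 1 on log axes; the line is the selection margin of 1 on the log2 scale. Most points lie just above the line, with 84 margins between 1 and 2, while 10 lie at 5 or more.

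The 24 models under 1 RPKM everywhere outside males come closest to being restricted. HSALG011610.2, a model with a coding length of 774 bases, had 958 and 719 RPKM in males, from 11424 and 6331 reads. It had 0 reads in all 12 other libraries. Set against a floor of 3 reads in a single library, its male mean was at least 3089-fold higher; the floor covers counting error only. It was the 1 model of the set with no read at all outside males.

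A pair with neighbouring identifier numbers behaved alike. HSALG011591.1 had 380 and 499 RPKM in males, against at most 0.250 RPKM in any other library. HSALG011593.2 had 378 and 469 RPKM in males, against at most 0.337 RPKM elsewhere. Outside males neither model had more than 3 reads in a library. What the identifier numbers mean is not given in the sources used here, so nothing is said of position.

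Longer models belonged to this class too. HSALG001671.2, with 3801 coding bases, had 444 and 202 RPKM in males and at most 0.348 RPKM elsewhere. HSALG010953.2, with 3432 coding bases, had 203 and 95.9 RPKM in males and at most 0.575 RPKM elsewhere. The longest of all 127, HSALG008743.1 with 8601 coding bases, had 35.3 and 14.7 RPKM in males and at most 0.886 RPKM elsewhere, in worker replicate 2. The shortest, HSALG020822.1 with 192 coding bases, had 76.8 and 29.3 RPKM in males, from 227 and 64 reads, and at most 0.309 RPKM elsewhere, from 1 read. At the low end, HSALG025211.1 had 2.08 and 2.61 RPKM in males, which was the lowest male mean of the set.

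Outside males, 11 of the 24 models had at most 3 reads in their fullest library, 4 had 4 to 9, and 9 had 10 or more, up to 154 reads of HSALG008743.1 in worker replicate 1. Workers had 0 reads in both libraries for 5 models of the whole set: HSALG011610.2, HSALG002639.2, HSALG020822.1, HSALG028643.1 and HSALG029951.1, all of this class. Against a floor of 3 reads in 1 worker library, the male means of these 5 were at least 3776-fold, 1060-fold, 59.2-fold, 113-fold and 9.96-fold higher. In 18 models of the 127, at least 6 of the 12 other libraries held no read. None of the 24 could pass the filter used for tests, so no difference between groups other than males was tested in this class.

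The 29 models that reached between 1 and 10 RPKM outside males include some of the most abundant male transcripts. HSALG008444.1 had 4235 and 1777 RPKM in males, from 31698 and 9827 reads. Its highest value elsewhere was 1.46 RPKM in early pupa replicate 1, from 12 reads, and 7 of the 12 other libraries held none. Its margin of 9.50 was the largest of the set. HSALG009935.1 had 1653 and 718 RPKM in males, against 1.84 and 1.35 RPKM in workers and at most 1.11 RPKM in the other 10 libraries. That the male libraries of both models lay above the rest was fixed by the selection. In this class the worker mean exceeded every other non-male group mean for 22 of the 29 models, or 75.9%. The share was 14.9% among the 8805 HSALG models with at least 1 RPKM in both males. Some of the 22 rest on few worker reads, as in HSALG021650.1 with 4 and 7.

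The 74 models at 10 RPKM or more outside males were male-high rather than male-restricted. HSALG009060.1 had the highest male mean of the set, with 2104 and 8448 RPKM, and belongs here only through a value of 10.1 RPKM in embryo replicate 1. Its other 11 values outside males lay between 1.13 and 5.53 RPKM. HSALG004095.2 had 2893 and 7322 RPKM in males, against 724 and 667 RPKM in workers, 988 and 599 RPKM in instar 1 larvae, 612 and 725 RPKM in embryos, and 178 to 260 RPKM in instar 4 larvae and pupae. It was the most abundant model of the set in embryos, instar 1 larvae, late pupae and workers as well.

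HSALG011041.1 had 2351 and 4630 RPKM in males, against 321 and 267 RPKM in workers and 51.4 to 348 RPKM in the rest. HSALG013460.2 had 1560 and 3366 RPKM in males, against 443 and 487 RPKM in workers and 90.7 to 382 RPKM in the rest, and led the set in instar 4 larvae and early pupae. HSALG006232.2 had 1706 and 1711 RPKM in males, against 202 and 229 RPKM in workers and 31.2 to 136 RPKM in the rest. In these 3 models the non-male levels stayed above 30 RPKM throughout.

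**Figure D3:**
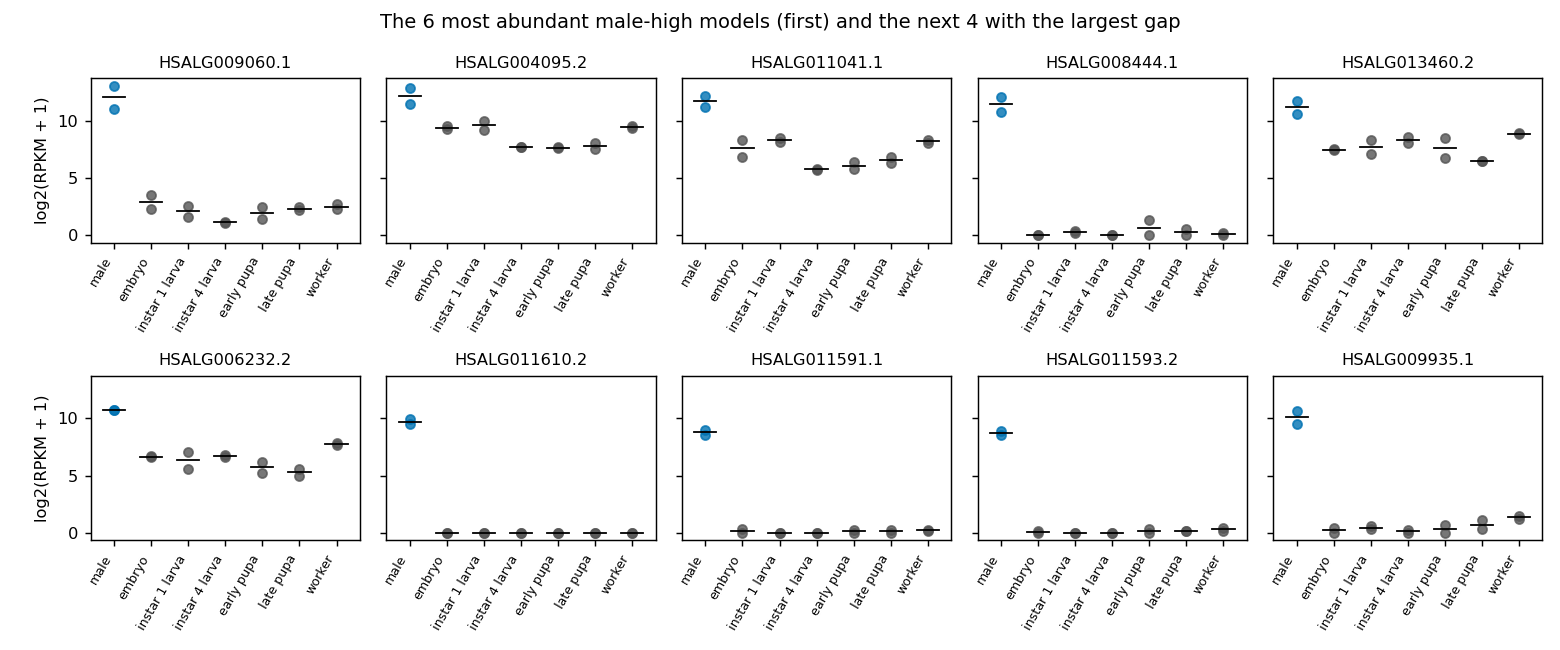
Levels in both libraries of each group, as log2(RPKM + 1), for the 6 models with the highest male mean and then the 4 others with the largest margin; bars are group means. HSALG011610.2 lies at 0 in all 12 other libraries, whereas HSALG004095.2 reaches 988 RPKM in instar 1 larva replicate 1.

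The set was spread over a wide range of abundance in males. The male mean was 1000 RPKM or more for 10 models, between 100 and 1000 RPKM for 57, between 10 and 100 RPKM for 50, and under 10 RPKM for 10, with a median of 106 RPKM. The 6 most abundant models made up 38.7% and 47.6% of the summed RPKM of the set in the male libraries. Without them the set still summed to 23549 and 29969 RPKM in males, against 3557 and 3635 RPKM in workers.

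Coding length was read from the steps that whole reads leave in the RPKM, and was a multiple of 3 for 125 of the 127 models. The set's median was 774 bases, against 1143 bases for HSALG models with at least 1 RPKM in both males. Models under 600 bases made up 40.2% of the set, against 23.5% of those models. Over all 18105 HSALG models with a read the median was 741 bases, so the set was shorter than the models present in males but not shorter than the annotation as a whole. By class the median was 722 bases for models under 1 RPKM outside males, 1023 bases for those between 1 and 10 RPKM, and 693 bases for those at 10 RPKM or more. These are descriptions with no test.

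In this set the 2 male libraries lay further apart than in other models abundant in males, which is a description with no test. The log2 difference, male replicate 1 minus male replicate 2, had a median of -0.06 and an SD of 1.17 over the 127. A 2-fold or larger difference occurred in 52 of them, or 40.9%, against 20.7% of the 3460 other HSALG models with a male mean of at least 10 RPKM. A 4-fold or larger difference occurred in 10, or 7.87%, against 5.23%. The largest was in HSALG021650.1, with 6.66 and 118 RPKM from 40 and 525 reads, and the smallest in HSALG006232.2. With 2 male libraries, each such value is a single difference.

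The direction of the male difference was not the same in the 3 classes. Of the 24 models under 1 RPKM outside males, 16 were higher in male replicate 1, with a median log2 difference of 0.58, and 11 of them lay between 0.5 and 1.5. HSALG001671.2, HSALG010953.2 and HSALG020821.1 are examples, with 444, 203 and 168 RPKM in replicate 1 and 202, 95.9 and 73.8 RPKM in replicate 2. Exceptions were HSALG005687.2, with 49.3 and 210 RPKM, and HSALG007758.2, with 3.48 and 26.7 RPKM. Of the 74 models at 10 RPKM or more, 48 were higher in male replicate 2, with a median of -0.29. Of the 29 models between 1 and 10 RPKM, 16 were higher in replicate 1 and 13 in replicate 2, with a median of 0.14. Over the 8805 HSALG models with at least 1 RPKM in both males the median was 0.31. Of these, 6272 were higher in replicate 1 and 2533 in replicate 2. A lean to replicate 1 was therefore also the background, and is not particular to the class under 1 RPKM. The difference between classes was not tested.

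**Figure D4:**
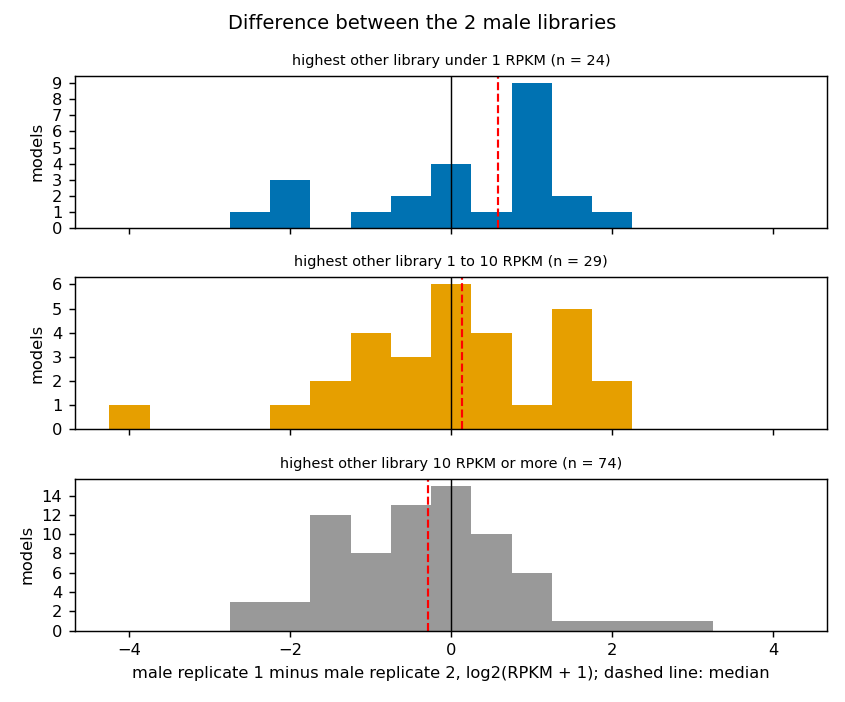
Number of models by the log2 difference between the 2 male libraries, replicate 1 minus replicate 2, for the 3 classes; the dashed line is the median and the solid line marks 0. The median is 0.58 for the 24 models under 1 RPKM outside males and -0.29 for the 74 at 10 RPKM or more. It is 0.31 over the 8805 HSALG models with at least 1 RPKM in both males.

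Outside males the set was highest in adult workers. The worker mean exceeded that of every other non-male group for 74 of the 127 models, or 58.3%, against 14.9% of the 8805 HSALG models with at least 1 RPKM in both males. The remaining models were highest in embryos for 20, instar 1 larvae for 16, early pupae for 7, late pupae for 6 and instar 4 larvae for 4. All 16 with their highest non-male mean in instar 1 larvae were of the class at 10 RPKM or more. In the class under 1 RPKM, where 11 of 24 models had at most 3 reads in any other library, 8 were highest in embryos and 7 in workers. The selection used only the highest of the 12 libraries, not their order.

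Non-overlap gave a similar picture. Both worker libraries exceeded the other 10 non-male libraries for 49 of the 127 models. Of the 97 that passed a filter of 1 RPKM in at least 2 non-male libraries, 44 did so, or 45.4%, against 7.37% of the HSALG models past that filter. Of the 44, 5 passed the filter through the worker libraries alone and had to be among them. Of the 97, 88 held at least 1 RPKM in 2 or more of the 10 libraries other than males and workers. The rest needed a worker library to pass, and the share without them was not computed. In the same comparison 9 models were above the rest in both instar 1 larva libraries and 3 in both embryo libraries, against 6.31% and 28.1% of HSALG models, or 9.28% and 3.09% of the 97.

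A few models reached 1 RPKM in males and workers alone. Both worker libraries held at least 1 RPKM and the other 10 non-male libraries under 1 RPKM for 5 models. That is 3.94% of the set, against 0.522% of the 8805, or 46 models. The selection favours models that are low outside males, so these shares are not alike in basis. All 10 libraries other than males and workers were under 1 RPKM for 32 models of the set, or 25.2%. The same held for 94 of the 8805, or 1.07%. The 5 come from those 32 and the 46 from those 94. HSALG000249.2 had 586 and 1182 RPKM in males, 69.5 and 33.0 RPKM in workers, and at most 0.279 RPKM in embryos, larvae and pupae. HSALG011110.1 had 200 and 38.8 RPKM in males, 18.1 and 15.7 RPKM in workers, and at most 0.356 RPKM in the rest. The other 3 were HSALG008469.2, HSALG006079.2 and HSALG009551.2, with worker means of 9.97, 2.53 and 1.74 RPKM and male means of 38.9, 27.3 and 12.6 RPKM. The order of males above workers was fixed by the selection, and that of workers above the rest by the choice of these 5.

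The distance between males and workers differed widely within the set. Over the 122 models with a worker read, the ratio of male mean to worker mean had a median of 6.96, or 7.17 over all 127 with the 5 others at their lower bound. The ratio was between 2 and 4 for 22 models, between 4 and 16 for 70, and 16 or more for 30. Its median was at least 359 for the 24 models under 1 RPKM outside males, with those lacking a worker read at their bound, and 12 of the 24 had 3 or fewer reads in both worker libraries together. It was 7.02 for models between 1 and 10 RPKM outside males and 5.36 for those at 10 RPKM or more. The selection fixes the direction of these ratios, so they are given without a test.

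Comparisons among the 12 other libraries did not use the male values, and were tested with limma over 12269 models with Benjamini-Hochberg adjustment. The selection did use the highest of these 12 libraries, so the set is not wholly independent of the values tested. Of the set, 97 models entered: 23 of those between 1 and 10 RPKM and all 74 at 10 RPKM or more. Of these, 5 passed the filter through the worker libraries alone, among them HSALG000249.2 and HSALG011110.1, and HSALG005772.2 passed it through the instar 4 libraries alone. These 6 had to differ between that group and the rest, so their values are given with no test. Each count for a pair of groups is also given with a filter added after seeing the data. It asks for 1 RPKM in at least 2 of the 8 libraries outside the pair compared. The groups varied at an adjusted p below 0.05 in the limma F test for 82 of the 97, or 84.5%, against 65.5% of all models tested. Without both early pupa libraries, a choice made after seeing the data, 91 of the 97 varied, or 93.8%, against 82.4% of all models. The F test compares every group, so no libraries are left for such a filter. Its 97 models still include the 6 admitted through a single group. The comparisons below share libraries with each other and are read one by one.

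Workers against late pupae sets the adult female beside the last stage sampled before it, in pupae whose sex the labels do not give. At an adjusted p below 0.05 in limma, 41 of the 97 models were higher in workers, or 42.3%, against 7.34% of all models tested. None was lower, against 2.67% of all models, and 1 had an unadjusted p below 0.05 in that direction. The 97 include the 5 models admitted through the workers alone. The filter on the 8 other libraries leaves these out, along with others that lacked 1 RPKM in 2 of those 8. With that filter, 35 of 87 were higher, or 40.2%, against 6.50% of all models, and 0 were lower in limma, against 2.36%. The log2 difference was above 0 for 92 of the 97 and had a median of 1.50, against 0.00 over all models. Of the models higher in workers, 7 of 23 were between 1 and 10 RPKM outside males and 34 of 74 at 10 RPKM or more.

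HSALG000249.2, which the filter admitted through the worker libraries alone, had 51.3 ± 25.8 RPKM in workers and 0.134 ± 0.101 RPKM in late pupae (SD, n = 2 each). HSALG003869.1, which also passed 1 RPKM in larvae of both instars, rose by 5.04 ± 0.96 on the log2 scale (SE; limma, Benjamini-Hochberg adjusted p = 0.00909), with 48.4 and 45.4 RPKM in workers and 0.644 and 0.293 RPKM in late pupae. Its early pupa values were 0.695 and 25.8 RPKM, and its instar 4 values 9.56 and 8.45 RPKM, so its low point was not shared by all stages before the adult. The abundant HSALG004095.2, HSALG006232.2 and HSALG013460.2 rose by 1.69, 2.47 and 2.35 on the log2 scale, with Benjamini-Hochberg adjusted p = 0.0127, 0.0111 and 0.0243 in limma. HSALG011041.1, with 294 ± 38.4 RPKM in workers and 96.5 ± 25.2 RPKM in late pupae, had an adjusted p = 0.0609 in limma, and HSALG009060.1, with 4.69 ± 1.19 RPKM in workers and 4.00 ± 0.603 RPKM in late pupae, had an adjusted p = 0.875 (SD, n = 2 each).

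Single libraries decided this count. It fell below 41 when any 1 worker or late pupa library was left out, and fell most without a worker library. The calls for all models fell with it. Without worker replicate 2 or 1 the median log2 difference of the set's tested models was 1.46 and 1.48. Without late pupa replicate 2 or 1 it was 1.22 and 1.69. Over all models the median was -0.10, 0.09, 0.09 and -0.07, in the same order. Without both early pupa libraries 60 of 97 models were higher and 1 lower, or 61.9% and 1.03%, against 12.0% and 7.59% of all models. HSALG003869.1 had a limma adjusted p of 0.0739, 0.0767 and 0.074 without worker replicate 1, worker replicate 2 or late pupa replicate 2. Quantile scaling of the libraries gave 28 models higher and 0 lower in limma, 23 of them among the 41, and changed the split of all models to 873 higher and 661 lower, against 901 and 327 without it.

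**Figure D5:**
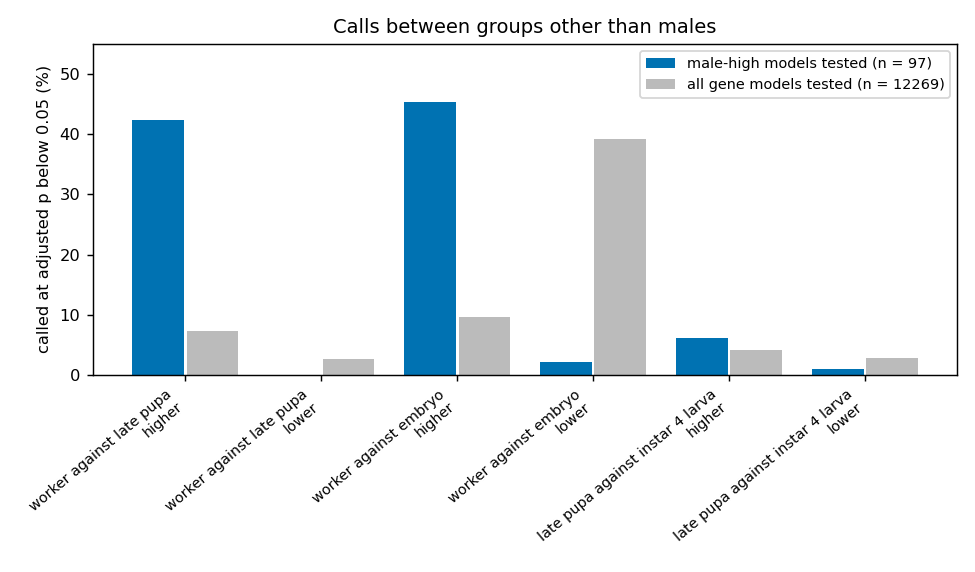
Share of models called higher or lower at a Benjamini-Hochberg adjusted p below 0.05 in limma in 3 comparisons without males, for the 97 male-high models tested (blue) and all 12269 models tested (grey). The male-high models were called higher in workers than in late pupae in 42.3% of cases, against 7.34% of all models. Some of the 97 passed the filter through a single group.

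Workers against embryos sets the ends of development side by side. In limma, 44 of the 97 models were higher in workers, or 45.4%, against 9.55% of all models tested. Lower in workers were 2 of the 97, or 2.06%, against 39.2% of all models. Here too the 97 include the 5 models admitted through the workers alone. The filter on the 8 other libraries leaves these out, along with others that lacked 1 RPKM in 2 of those 8. With that filter, 37 of 88 were higher and 2 lower, or 42.0% and 2.27%, against 8.74% and 38.7% of all models. The median log2 difference was 1.23 for the 97 and -0.83 for all models. With the libraries scaled to a common median, the median of all models moved to -0.10 and 63 of the 97 were higher and 0 lower. In that scaling all models split into 1720 higher and 1456 lower, and with quantile scaling into 1510 and 1958, against 1172 and 4809 with neither. Without worker replicate 1 or 2 the calls fell, both in the set and over all models, and those left in the set were all higher in workers. The median log2 difference was then 1.15 and 0.99 for the set's tested models, against -0.74 and -0.94 over all models. Without both early pupa libraries 50 of 97 models were higher and 2 lower, or 51.5% and 2.06%, against 12.5% and 46.7% of all models.

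HSALG006008.2 had 340 and 413 RPKM in males, and its 148 and 154 RPKM in workers stood against 0.290 and 0.322 RPKM in embryos. The rise was 6.86 ± 0.75 on the log2 scale (SE; limma, Benjamini-Hochberg adjusted p = 0.000194). HSALG000249.2 had 69.5 and 33.0 RPKM in workers, against 0 and 0.120 RPKM in embryos, a difference its route through the filter had fixed. The 2 models that fell were HSALG004751.2 and HSALG010383.1. HSALG004751.2 had 0.496 and 0.481 RPKM in workers, against 4.52 and 1.71 RPKM in embryos, and 10.3 and 18.1 RPKM in males (log2 difference -1.38 ± 0.36 SE; limma, adjusted p = 0.0119, and 0.0778 with median scaling). HSALG010383.1 had 15.5 ± 2.16 RPKM in workers, against 31.0 ± 4.80 RPKM in embryos (SD, n = 2 each), and 80.5 and 81.9 RPKM in males (log2 difference -0.95 ± 0.32 SE; limma, adjusted p = 0.0319).

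Late pupae against instar 4 larvae spans metamorphosis. In limma, 6 of the 97 models were higher in late pupae, or 6.19%, against 4.18% of all models tested, and 1 was lower, or 1.03%, against 2.71%. The median log2 difference was 0.33 for the 97 and 0.36 for all models, so the shares and the median lay near the background. HSALG006008.2 had 67.8 and 13.6 RPKM in late pupae, against 2.59 and 2.68 RPKM in instar 4 larvae (log2 difference 3.12 ± 0.75 SE; limma, adjusted p = 0.0392). HSALG002894.2 had 19.3 and 7.10 RPKM in late pupae, against 0.533 and 0.456 RPKM in instar 4 larvae (log2 difference 3.10 ± 0.72 SE; limma, adjusted p = 0.0365). Their male means were 376 and 80.6 RPKM and their worker means 151 and 31.2 RPKM. The model called lower was HSALG005772.2, with 0.666 and 0.703 RPKM in late pupae, against 7.10 and 4.53 RPKM in instar 4 larvae, and it had entered only through those larvae. Its male values were 251 and 152 RPKM. With the filter on the 8 other libraries, 6 of 96 were higher, or 6.25%, against 3.85% of all models, and 0 were lower in limma, against 2.52%.

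These calls for metamorphosis rested on few libraries. In limma 0 models were higher in late pupae without either one of the instar 1 larva, instar 4 larva or worker libraries, or without late pupa replicate 1, while 13 to 31 had an unadjusted p below 0.05 in either direction. The calls over all models fell in these fits too. Without late pupa replicate 2 the calls fell, and without either early pupa library they rose, both in the set and over all models. The median log2 difference was 0.54 for the set without late pupa replicate 2, against 0.28 over all models. Without either early pupa library it was 0.33 for the set, against 0.35 and 0.37 over all models. Without both early pupa libraries 18 of 97 models were higher and 6 lower, or 18.6% and 6.19%, against 16.6% and 5.84% of all models. With the libraries scaled to a common median, 6 were higher and 6 lower, and the median of all models moved from 0.36 to -0.06. All models then split into 827 higher and 866 lower, and with quantile scaling into 731 and 705, against 513 and 333 with neither.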

How the data were processed

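Strand-specific libraries were made from poly(A) RNA of whole bodies by dUTP incorporation after random priming, per the labels' protocols. The deposited values are RPKM per gene model, computed by the authors. The submitters' processing notes name STAR 2.5.0b and DESeq2 without saying what each did. For the counter, genome build and annotation, nothing is stated in the sources used here.

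The RPKM keep the steps of whole reads. A whole-number length per model and a denominator per library that turn the 6 printed digits into whole reads were found for 18543 of the 18543 models above 0. Reads in models made up 31.7% to 55.1% of the denominators. Resolved lengths were multiples of 3 in 98.1% of HSALG models and are called coding lengths. The labels mention no molecular identifiers, so PCR copies may count as reads, and floors of 3 reads cover counting error alone.

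Levels were compared as log2(RPKM + 1), which understates changes of low models. Models with at least 1 RPKM in at least 2 of the 12 libraries other than males were fitted with limma 3.58.1 (R 4.3.3) with an intensity trend, 6 groups and no block. Male libraries were left out, because the models were chosen for high male values. That choice also used the highest of the 12 other libraries. Tests were two-sided, with Benjamini-Hochberg adjustment over all models tested and a threshold of 0.05. An exact permutation test of 2 against 2 libraries cannot go below 0.333 and was not used. Steps were tested on simulated data. Descriptions used Python 3.11.15 with numpy 2.4.6 and pandas 2.3.3, and figures matplotlib 3.10.9.

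The 127 models, the comparisons and the alternatives were chosen with earlier results of these data known. Named are the 6 models with the highest male mean, the 4 others with the largest margin, the 3 on each side of the bound, up to 2 called in each direction of a comparison with at least 2-fold change and no overlap, the extremes of the male difference and of length, and the highest in each other group. Other named models were chosen after their values were seen. Same-numbered libraries were not taken as pairs, since their deviations correlated at -0.27 to 0.15 over the 15 pairs of groups. No sequences are printed.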

Additional observations from a re-analysis of the deposited data

How the results depend on the processing

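Over 110 recomputed counts of male-high models, 85 stayed within 1.5 times the value reported and 25 did not. These counts do not track which models were kept. With median scaling the selection gave 125 models, 104 of them among the 127. With quantile scaling it gave 105, 96 of them among the 127. The selection gave 127 models, 43 at a margin of 2, 264 at a margin of 0.5, and 127 to 390 with 1 library left out, the extremes above 137 being 390 without male replicate 1 and 254 without male replicate 2. The 41 calls of workers against late pupae became 65 in a fit of only the 4 libraries compared, and 3 to 61 with 1 library left out. The 7 calls of late pupae against instar 4 larvae became 3 with no filter, 12 with median scaling, 28 in a fit of only the 4 libraries compared, 24 without both early pupa libraries, and 0 to 24 with 1 library left out. The 46 calls of workers against embryos became 29 at a mean RPKM of at least 5, and 25 to 52 with 1 library left out. The 82 calls over the 6 groups ran from 55 to 90 with 1 library left out. Where a group was left with 1 library, that library is assumed to vary like the other groups. The cause of these shifts was not tested. With the replicate block the counts were 38, 7, 44 and 79, in the order given here. Of 173 recomputed values of named models, 146 kept direction and side of the threshold, 27 kept direction but passed to an adjusted p above it, and 0 reversed. Depth limited the class under 1 RPKM outside males, where 11 of the 24 models had at most 3 reads in any other library. The 173 values include those of HSALG000249.2 and HSALG005772.2, whose differences their routes through the filter had fixed. For these models a kept direction is no measure of stability. Neither could be fitted with the filter on the 8 libraries outside the comparison.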
